A study of Mus musculus with 12 samples.

Results

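Genes of ribosome biogenesis and of RNA polymerase I (Pol I) were compared between mouse lymphocytes labelled resting and labelled activated on 12 Affymetrix gene arrays. The genes were taken from a list of 44 symbols, which were matched to the probe sets that the annotation of the array pairs with 1 symbol. Of these, 43 were measured, out of 19937 genes in all, and Noc2l was not analysed here. The cells came from the spleen of F1 mice of the C57BL/6 and FVB strains and were isolated with magnetic beads, and total RNA was labelled. The labels give 4 groups of 3 arrays, which are B cells activated for 4 days in culture with αCD40 and IL-4, T cells activated for 4 days with αCD3, αCD28 and IL-2, CD43-negative resting B cells (day 0) and B220-negative resting T cells (day 0). Per the methods, resting B cells were what remained after beads with antibodies to TER-119, Gr-1, CD11b, CD138, CD43 and CD5 had removed other cells, while for the T cells the labels name B220 alone. By the labels, each activated group differs from its resting group by both the culture and the stimulus. Most of the T cell and B cell marker genes given below run against these labels. Whether each array stands for a mouse of its own is not given in the sources used here, and the p-values cover only the spread between these arrays.

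Ribosomes are built in the nucleolus. Pol I transcribes the ribosomal DNA into a long precursor RNA, after its initiation factor TIF-IA (Rrn3) and the promoter-bound factors UBF (Ubtf) and SL1 have recruited it. Box C/D and box H/ACA small nucleolar ribonucleoproteins (snoRNPs) place methyl groups and pseudouridines on the precursor, the small subunit processome folds and cleaves it, and separate sets of factors complete the small (40S) and the large (60S) subunit. Lymphocytes that enter the cell cycle are known to enlarge their nucleoli and to raise the output of this pathway, and MYC is known to bind the promoters of many of its genes.

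Before the values of these genes are given, the labels have to be set against the genes that define the lineages. Cd3e, part of the CD3 complex of T cells, averaged 10.07 log2 under the label activated B, 6.43 under activated T, 10.61 under resting B and 5.93 under resting T. Cd79a, which signals for the antigen receptor of B cells, averaged 4.50, 11.64, 8.27 and 10.45 log2 in the same order of groups. The T cell gene was thus high in both groups labelled B, and the B cell gene was highest in the groups labelled T. Mki67, a gene of cycling cells, averaged 10.58 log2 in arrays labelled activated B, 6.31 in arrays labelled activated T, 6.56 in arrays labelled resting B and 10.18 in arrays labelled resting T. The groups are therefore called by their labels throughout, and every direction below is a direction between labelled groups.

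Values are log2 intensities made with RMA, which corrects the background, normalises the arrays and combines the probes of a set, so that a difference of 1 is a 2-fold change. A gene was called when its p-value from limma, adjusted over all 19937 genes by the method of Benjamini and Hochberg, was under 0.05. All 43 genes lay above the background of the arrays, which was set at 5.21 log2 from 1027 olfactory receptor genes, and the lowest value of any of them on any array was 6.45. Within 1 array the value of a gene is relative to that of the other genes, and fewer cells of a type and less RNA per cell cannot be told apart in such bulk samples. The median of an array was 5.50 to 5.56 log2 under the label activated B and 5.64 to 5.68 under activated T. It was 5.63 to 5.66 under resting B and 5.51 to 5.61 under resting T. What caused these shifts was not tested. Results with each array centred on its median are given with the dependence on the processing.

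The step from labelled resting to labelled activated arrays ran in opposite directions under the 2 cell type labels. Of the 43 genes, 38 were higher in arrays labelled activated B than in arrays labelled resting B and 0 were lower, where 19.7% of all genes were called higher and 16.7% lower. In arrays labelled activated T, 38 of the 43 were lower than in arrays labelled resting T and 0 were higher, where 17.8% of all genes were called lower and 15.9% higher. The median difference of the 43 genes was 0.68 log2 in the labelled B groups, beside -0.02 for all genes, and -0.59 log2 in the labelled T groups, beside 0.02 for all genes. Both calls, higher in labelled B and lower in labelled T, were made for 37 genes, and the share of all genes with both calls was not counted. The interaction, which is the step in labelled B minus the step in labelled T, was called positive for 39 and negative for 0 of the 43 genes, where 21.9% of all genes were called positive and 20.9% negative, and its median was 1.29 log2, beside -0.03 for all genes. The directions of the called genes as a whole depend on the scaling, since the share of higher among all called genes was 66.6% in labelled B and 33.9% in labelled T with each array centred on its median, against 54.1% and 47.3% on the deposited values. Only 4 genes reached a 2-fold difference in labelled B (Nhp2, Noc4l, Rrp1b and Gar1) and 4 in labelled T (Npm1, Nhp2, Noc4l and Rrp1b). Such differences were not counted over all genes.

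**Figure D1:**
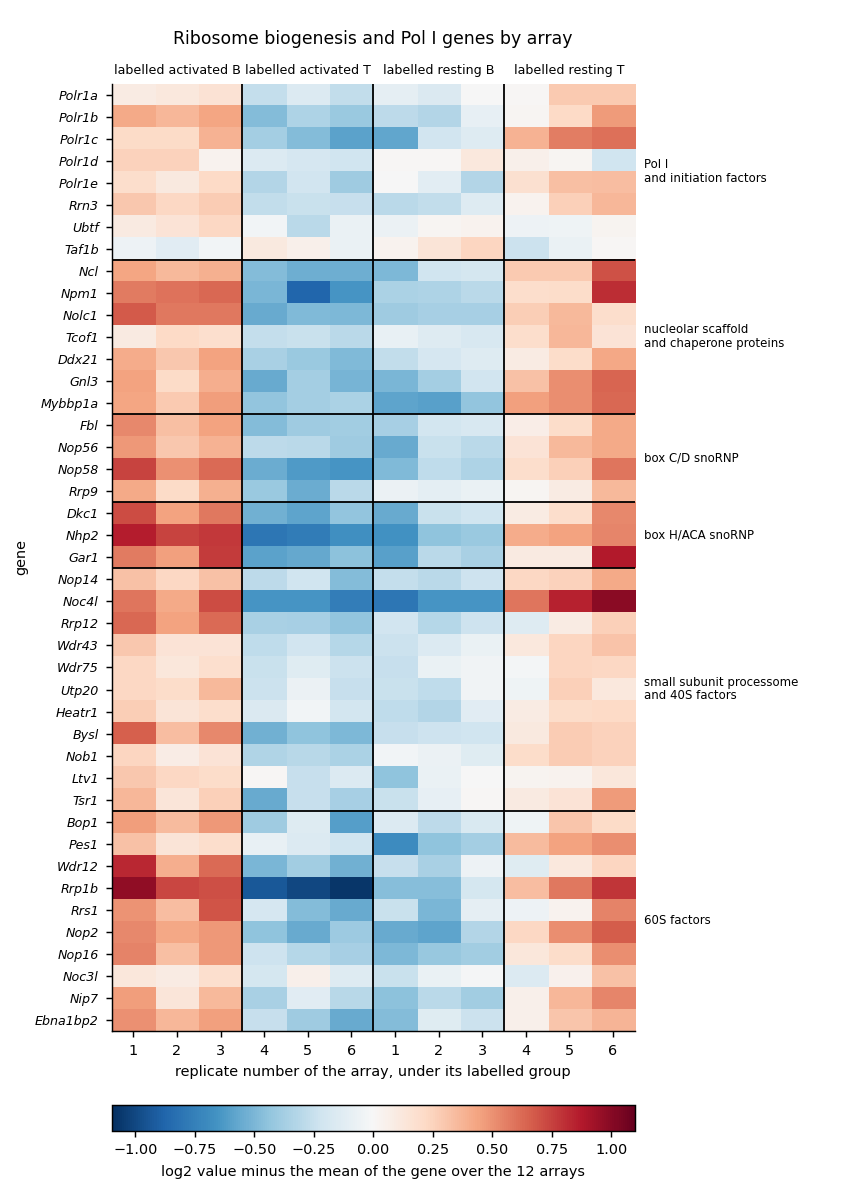
Each row is 1 of the 43 genes, ordered by role, and each column 1 of the 12 arrays under its labelled group; the colour gives the log2 value minus the mean of that gene over all arrays. The columns labelled activated B and resting T are red for most genes and those labelled activated T and resting B are blue, with Taf1b, Ubtf and Polr1d among the exceptions.

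On every array the median over the 43 genes followed the same split. It was 8.74, 8.65 and 8.74 log2 under the label activated B, 7.97, 8.01 and 7.92 under activated T, 8.04, 8.05 and 8.19 under resting B and 8.53, 8.67 and 8.81 under resting T. The 6 arrays labelled activated B or resting T were thus above the 6 others without overlap. The same held gene by gene for 37 of the 43, where it held for 12% of all genes, and the 6 genes for which the arrays overlapped were Polr1d, Ubtf, Taf1b, Utp20, Wdr12 and Noc3l. Taken step by step, the 3 arrays labelled activated B were above the 3 labelled resting B for 41 genes. The 3 arrays labelled activated T were below the 3 labelled resting T for 39 genes. How often all genes separate in these steps was not counted, so these counts have no share to be set against.

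The remaining comparisons place the 4 labelled groups in order. In arrays labelled resting B, 36 of the 43 genes were lower than in arrays labelled resting T and 0 were higher, with a median of -0.46 log2, where 19% of all genes were called lower and 16.1% higher. In arrays labelled activated B, 41 were higher than in arrays labelled activated T and 0 were lower, with a median of 0.76 log2, where 21.8% of all genes were called higher and 18.9% lower. Between the arrays labelled activated B and those labelled resting T the median was 0.14 log2, and 5 genes were called higher and 0 lower, where 13% of all genes were called higher and 9.93% lower. The 5 were Nolc1 (0.34), Nhp2 (0.33), Rrp12 (0.50), Bysl (0.29) and Wdr12 (0.54), and their number was 3 without activated B replicate 1, 3 without resting T replicate 4 and 10 without resting T replicate 6. Between the arrays labelled activated T and those labelled resting B the median was -0.13 log2, with Pes1 called higher (0.35) and Rrp9 (-0.33), Nob1 (-0.25) and Rrp1b (-0.63) called lower, where 8.82% of all genes were called higher and 9.68% lower. Those 3 lower calls became 1 (Rrp1b) without resting B replicate 2 or 3 and without activated T replicate 4 or 5, and the call of Pes1 was lost without resting B replicate 1 and without activated T replicate 4 or 5. In neither of these last comparisons did the genes reach a larger share of calls than all genes, and a missed threshold does not show that the levels were alike. By group means, the arrays labelled activated B were highest for 29 genes and those labelled resting T for 13, while those labelled activated T were lowest for 31 and those labelled resting B for 11. These orders were not counted over all genes.

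**Figure D2:**
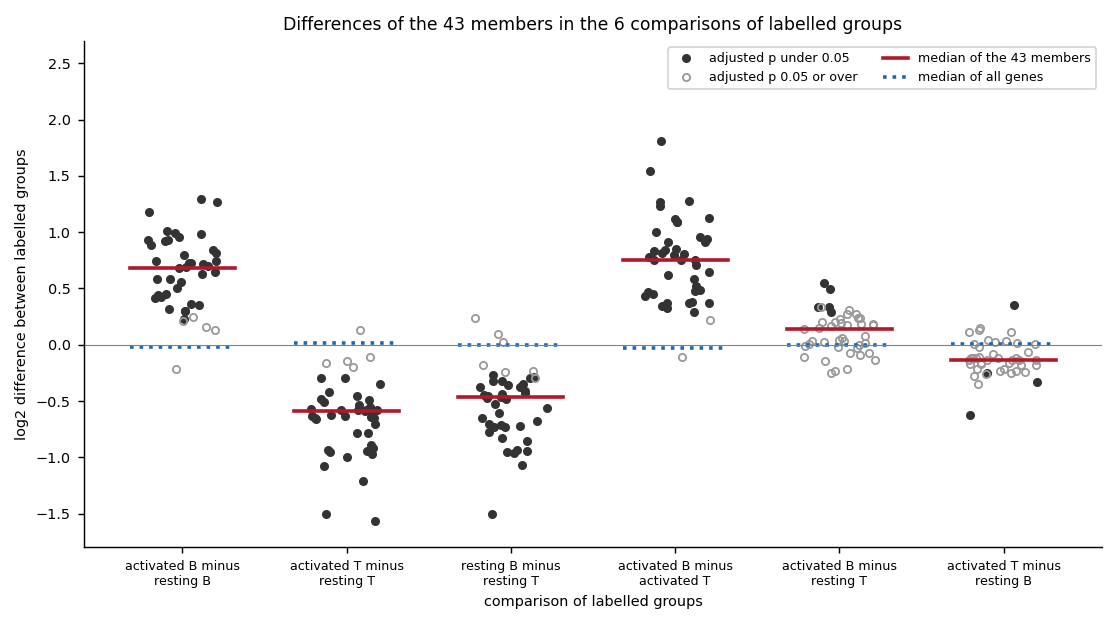
The log2 difference of each of the 43 genes in the 6 comparisons of labelled groups, with filled points for an adjusted p under 0.05, a red line for the median of the 43 and a dotted blue line for the median of all genes. The medians are 0.68, -0.59, -0.46 and 0.76 in the first 4 comparisons and 0.14 and -0.13 in the last 2, where most points are open.

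The size of the 2 steps varied between genes in parallel. The Pearson correlation of the step in labelled B with the step in labelled T, which share no array, was -0.84 across the 43 genes. It is given as a description because genes of 1 pathway measured on the same arrays are not independent. The same correlation was not computed over all genes, so whether it is particular to these genes is not known. Nhp2, Noc4l and Rrp1b lay at one end, and Taf1b, Ubtf, Polr1d and Noc3l at the other.

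**Figure D3:**
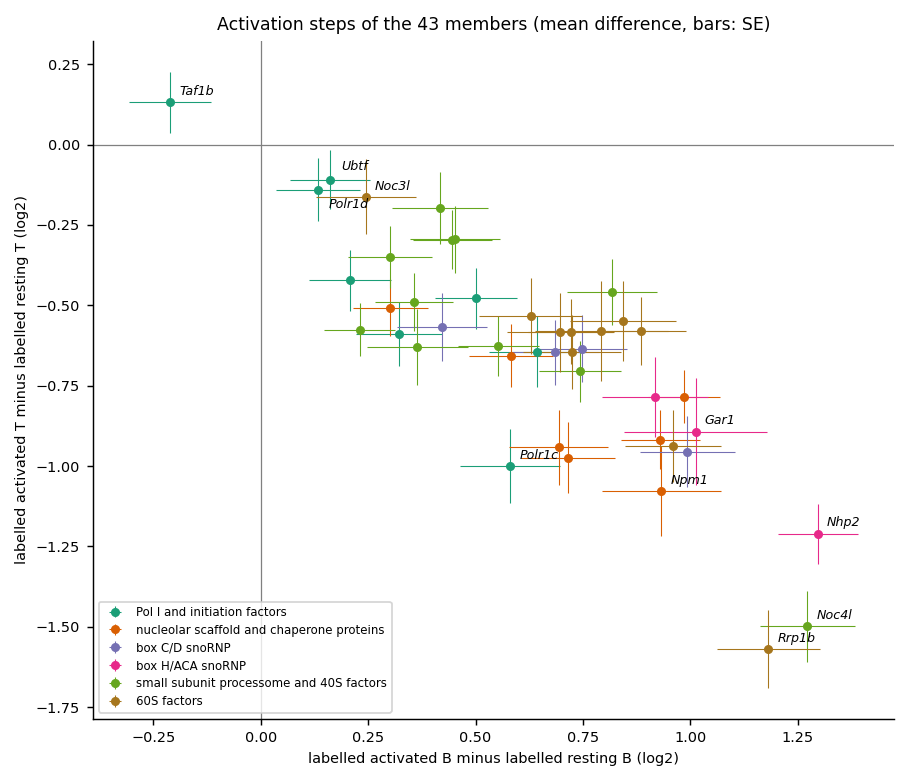
Each point is 1 of the 43 genes, with the difference between arrays labelled activated B and resting B on the x axis and between arrays labelled activated T and resting T on the y axis (log2, bars are SE), coloured by role. Nearly all points lie to the right of 0 and below 0, Nhp2, Noc4l and Rrp1b lie farthest out and Taf1b alone lies on the opposite side of both axes.

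Promoter sequences were at hand for 37 of the 43 genes, in 45 windows of 250 bases before to 50 bases after a transcription start (RefSeq, build GRCm38.p6). They were searched for the E box CACGTG, which reads the same on both strands and is the core site of MYC and MAX and also of USF factors. The motif was present in a window of 8 of the 37 genes (21.6%), beside 2187 of 27025 genes of the same table (8.09%). The 37 all lay above the background of the arrays, while the 27025 were not filtered for expression. The shares are therefore not from like sets of genes, and their difference was not tested. The 8 were Rrn3, with 1 match 215 and 1 match 48 bases before the start, Nop2, with 1 match 60 bases before it, and Mybbp1a, Pes1, Wdr43, Tsr1, Ltv1 and Utp20, with matches that begin at bases 3 to 41 counted from it. Printed here are the Pol I initiation factor with 2 matches (Rrn3, chr16:13780449-13780748, plus strand), a 60S and a nucleolar gene with 1 match each (Nop2, chr6:125131633-125131932, plus strand, and Mybbp1a, chr11:72441077-72441376, plus strand), the gene with the largest interaction, which has none (Noc4l, chr5:110653333-110653632, minus strand), and Taf1b, which has none (chr12:24498331-24498630, plus strand). Both steps of Taf1b were opposite in sign to those of the other genes, but neither was called. Each is written from 5′ to 3′ along the gene, and capitals mark the E box.
Rrn3: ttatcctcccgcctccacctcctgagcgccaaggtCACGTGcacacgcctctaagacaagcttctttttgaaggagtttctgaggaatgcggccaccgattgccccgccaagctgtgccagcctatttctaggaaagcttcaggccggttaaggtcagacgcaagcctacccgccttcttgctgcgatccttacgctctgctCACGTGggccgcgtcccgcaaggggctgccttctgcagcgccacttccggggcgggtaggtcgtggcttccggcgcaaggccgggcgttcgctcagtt
Nop2: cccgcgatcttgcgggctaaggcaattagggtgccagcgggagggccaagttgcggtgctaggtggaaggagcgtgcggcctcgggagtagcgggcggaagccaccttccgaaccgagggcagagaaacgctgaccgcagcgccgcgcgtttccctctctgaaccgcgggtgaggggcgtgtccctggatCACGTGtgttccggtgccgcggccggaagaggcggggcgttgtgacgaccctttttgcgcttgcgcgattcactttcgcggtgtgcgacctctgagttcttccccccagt
Mybbp1a: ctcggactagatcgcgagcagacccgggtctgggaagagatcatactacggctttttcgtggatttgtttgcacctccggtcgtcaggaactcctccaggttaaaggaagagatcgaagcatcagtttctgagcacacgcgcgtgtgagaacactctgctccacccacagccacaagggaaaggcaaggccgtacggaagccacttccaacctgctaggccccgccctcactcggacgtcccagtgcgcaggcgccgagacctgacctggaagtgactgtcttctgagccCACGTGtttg
Noc4l: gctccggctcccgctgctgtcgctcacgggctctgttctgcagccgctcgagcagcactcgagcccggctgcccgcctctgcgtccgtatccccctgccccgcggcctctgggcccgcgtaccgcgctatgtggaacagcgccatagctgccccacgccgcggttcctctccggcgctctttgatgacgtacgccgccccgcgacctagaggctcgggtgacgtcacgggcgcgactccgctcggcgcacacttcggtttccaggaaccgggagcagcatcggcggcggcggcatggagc
Taf1b: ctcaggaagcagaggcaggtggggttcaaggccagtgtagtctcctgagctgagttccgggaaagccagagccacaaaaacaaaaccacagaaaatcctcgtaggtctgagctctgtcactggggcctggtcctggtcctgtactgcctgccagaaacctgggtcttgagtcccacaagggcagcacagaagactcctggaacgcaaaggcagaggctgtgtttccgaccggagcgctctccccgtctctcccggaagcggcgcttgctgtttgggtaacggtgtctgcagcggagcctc
The 8 genes with the motif had steps of 0.36 to 0.96 log2 (median 0.48) in labelled B and of -0.94 to -0.20 (median -0.54) in labelled T. The 29 genes whose windows lack it had steps of -0.21 to 1.30 (median 0.69) in labelled B and of -1.57 to 0.13 (median -0.64) in labelled T. The ranges overlapped widely, and a match is a description of the letters and not of a bound site.

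Among the 8 genes of Pol I and its initiation factors, 4 rose in labelled B (Polr1b, Polr1c, Polr1e and Rrn3) and 5 fell in labelled T (the same 4 and Polr1a), with medians of 0.26 and -0.45 log2. Polr1c encodes a subunit shared by Pol I and Pol III and had the largest interaction of this group. Its values were 8.55, 8.56 and 8.73 log2 in arrays labelled activated B, 7.97, 7.87 and 7.75 in arrays labelled activated T, 7.77, 8.13 and 8.20 in arrays labelled resting B and 8.73, 8.91 and 8.95 in arrays labelled resting T. The arrays of each activated group did not overlap with those of its resting group, and the step was 0.58 ± 0.12 log2 in labelled B (SE, adjusted p = 0.00065) and -1.0 ± 0.12 in labelled T (adjusted p = 2.81e-06). The 2 largest subunits of the enzyme had steps of 0.64 ± 0.11 and -0.64 ± 0.11 log2 for Polr1b, both called, and 0.21 ± 0.10 (adjusted p = 0.107) and -0.42 ± 0.10 (adjusted p = 0.00197) for Polr1a, whose step in labelled B passed with each array centred on its median (0.31, adjusted p = 0.0168). Rrn3, whose product makes the polymerase competent to initiate, had 8.97, 8.90 and 8.95 log2 in arrays labelled activated B, 8.41, 8.43 and 8.42 in arrays labelled activated T, 8.38, 8.41 and 8.54 in arrays labelled resting B and 8.71, 8.94 and 9.04 in arrays labelled resting T. The 6 values of the groups labelled activated B and resting T were all above the other 6, and the steps were 0.50 ± 0.10 (adjusted p = 0.000409) and -0.48 ± 0.10 log2 (adjusted p = 0.000683). Polr1e, the PAF53 subunit, stepped by 0.32 ± 0.10 in labelled B (adjusted p = 0.0175) and by -0.59 ± 0.10 in labelled T (adjusted p = 0.000154). Its call in labelled B was lost without resting B replicate 3 (0.23, adjusted p = 0.101), without activated B replicate 1 (0.31, adjusted p = 0.0505) and without activated B replicate 3 (0.30, adjusted p = 0.0648).

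Ubtf and Taf1b, which encode factors at the promoter of the ribosomal DNA, were not called in either step. Ubtf encodes UBF and had the smallest interaction of the Pol I genes, 0.27 ± 0.13 log2 (adjusted p = 0.115). Its values were 8.69, 8.74 and 8.82 in arrays labelled activated B, 8.56, 8.29 and 8.52 in arrays labelled activated T, 8.52, 8.61 and 8.63 in arrays labelled resting B and 8.53, 8.55 and 8.62 in arrays labelled resting T. The arrays labelled activated B were above those labelled resting B, while those labelled activated T overlapped with those labelled resting T, and neither step was called. After median centring of the arrays, the step in labelled B (0.27, adjusted p = 0.0367) and the interaction (0.48, adjusted p = 0.00748) of Ubtf passed. Taf1b encodes a subunit of SL1 and is described here because of its values. They were 7.81, 7.74 and 7.84 log2 in arrays labelled activated B, 7.98, 7.93 and 7.80 in arrays labelled activated T, 7.91, 8.02 and 8.10 in arrays labelled resting B and 7.63, 7.80 and 7.88 in arrays labelled resting T. All 3 arrays labelled activated B were below those labelled resting B, but the step of -0.21 ± 0.10 (adjusted p = 0.101) and the interaction of -0.34 ± 0.13 (adjusted p = 0.0506) missed the threshold. The interaction of Taf1b passed without resting B replicate 1 (-0.39, adjusted p = 0.0329), without resting T replicate 6 (-0.40, adjusted p = 0.0286) and without activated T replicate 6 (-0.39, adjusted p = 0.035), and also under quantile normalization (-0.43, adjusted p = 0.00725), array weights and 3 other settings given with the dependence on the processing. Polr1d, a second subunit shared with Pol III and the Pol I gene with the highest mean value, had 9.12, 9.12 and 8.91 log2 in arrays labelled activated B, 8.72, 8.68 and 8.64 in arrays labelled activated T, 8.88, 8.88 and 8.98 in arrays labelled resting B and 8.92, 8.89 and 8.65 in arrays labelled resting T. Activated and resting arrays overlapped under the B label, and neither the step of 0.13 ± 0.10 nor that of -0.14 ± 0.10 was called. Its result depends on the probe set, because the dimmer of its 2 probe sets stepped by 1.09 log2 in labelled B and by -0.56 in labelled T, and with the mean of both the interaction was 0.96 (adjusted p = 2.03e-06). On the brighter probe set the interaction also passed with median centring (0.48, adjusted p = 0.013) and without resting T replicate 6 (0.36, adjusted p = 0.039).

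**Figure D4:**
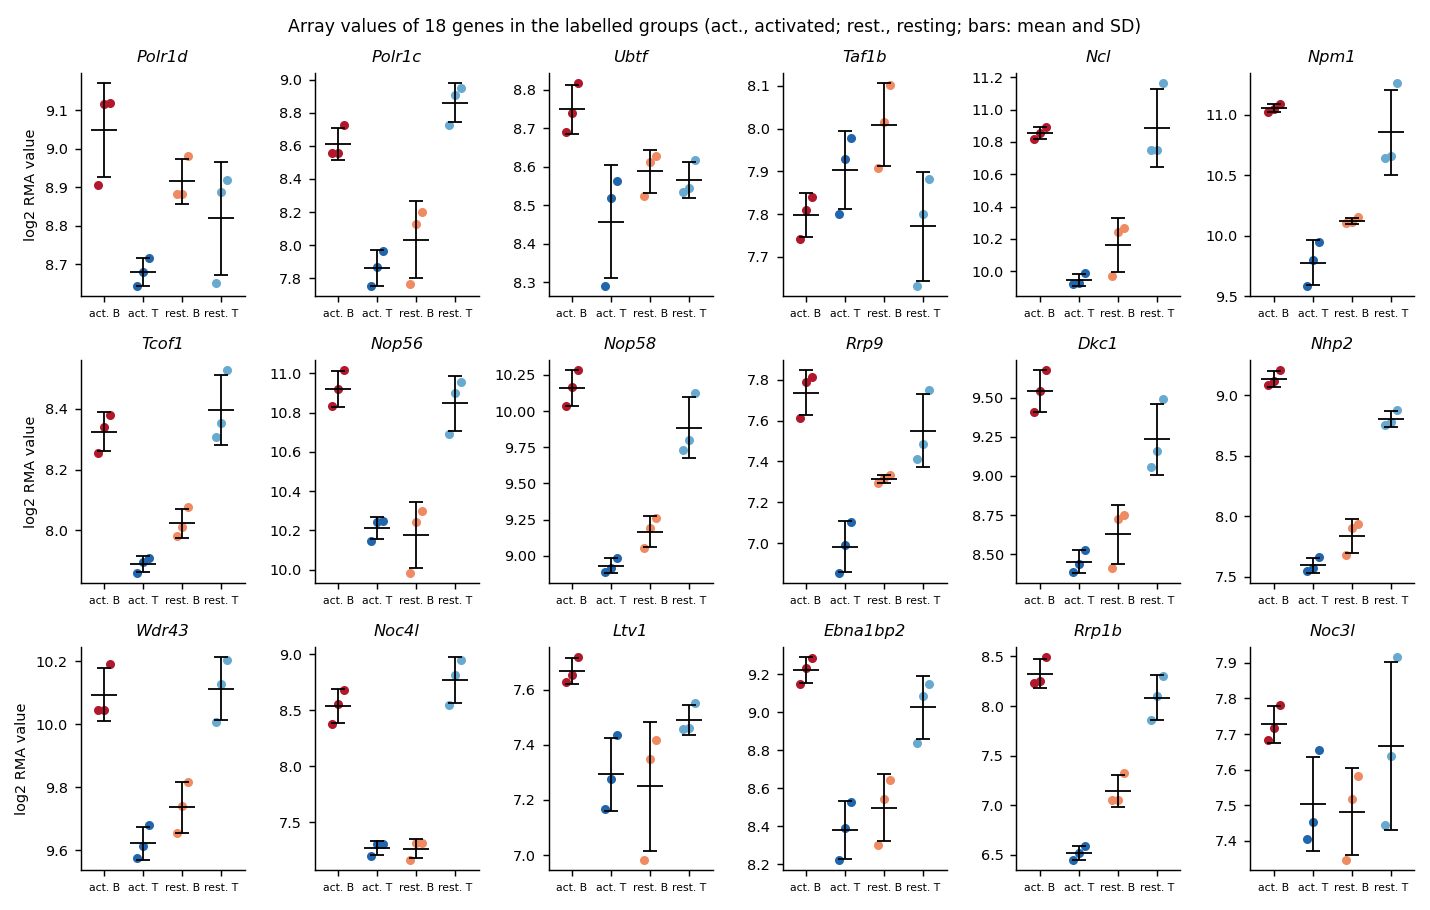
Log2 RMA values of 18 genes, 1 panel each with its own axis, in arrays labelled activated B, activated T, resting B and resting T (points, 3 arrays per group; black lines, mean and SD). In most panels the first and the last group are high and the 2 middle groups low, as for Nhp2 with 9.08 to 9.21 and 8.75 to 8.88 against 7.54 to 7.66 and 7.68 to 7.94, while Taf1b, Ubtf, Polr1d and Noc3l do not show this split.

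All 7 nucleolar scaffold and chaperone genes rose in labelled B (median 0.71 log2) and fell in labelled T (median -0.92). Ncl encodes nucleolin, an abundant RNA-binding protein of the nucleolus, and had the highest mean value of these genes. It had 10.89, 10.82 and 10.85 log2 in arrays labelled activated B, 9.99, 9.93 and 9.92 in arrays labelled activated T, 9.97, 10.24 and 10.27 in arrays labelled resting B and 10.75, 10.75 and 11.16 in arrays labelled resting T. No array of the 2 low groups reached the lowest of the 2 high groups, and the steps were 0.69 ± 0.12 (adjusted p = 0.000117) and -0.94 ± 0.12 log2 (adjusted p = 5.14e-06). Npm1 encodes nucleophosmin, a histone and ribosome chaperone, and had the largest interaction of the group, 2.01 ± 0.20 log2 (adjusted p = 2.17e-07). Its values were 11.02, 11.05 and 11.09 in arrays labelled activated B, 9.95, 9.58 and 9.80 in arrays labelled activated T, 10.10, 10.11 and 10.15 in arrays labelled resting B and 10.65, 10.66 and 11.26 in arrays labelled resting T. The 2 high groups did not overlap with the 2 low groups, and resting T replicate 6 was the highest of all 12 arrays, above the other 2 of its group. Npm1 also has 3 probe sets that the annotation pairs with several symbols, which were not used. Tcof1 encodes treacle, a partner of Pol I at the ribosomal DNA, and had the smallest interaction of the group, 0.81 ± 0.12 log2 (adjusted p = 3.64e-05). It had 8.25, 8.38 and 8.34 in arrays labelled activated B, 7.90, 7.91 and 7.86 in arrays labelled activated T, 8.08, 8.01 and 7.98 in arrays labelled resting B and 8.35, 8.53 and 8.31 in arrays labelled resting T, again without overlap between high and low groups. Nolc1, a chaperone of snoRNPs known as Nopp140, stepped by 0.99 and -0.78 log2, Mybbp1a, a nucleolar binding partner of MYB, by 0.93 and -0.92, Gnl3, the nucleolar GTPase nucleostemin, by 0.71 and -0.97, and Ddx21, a nucleolar RNA helicase, by 0.58 and -0.66, each first in labelled B and then in labelled T.

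All 4 box C/D snoRNP genes rose in labelled B (median 0.72 log2) and fell in labelled T (median -0.64). Nop58 and Nop56 encode the paired core proteins that hold fibrillarin on the guide RNA. Nop58 had 10.28, 10.04 and 10.16 log2 in arrays labelled activated B, 8.99, 8.92 and 8.89 in arrays labelled activated T, 9.05, 9.26 and 9.19 in arrays labelled resting B and 9.73, 9.80 and 10.13 in arrays labelled resting T. Its steps of 0.99 ± 0.11 (adjusted p = 1.53e-06) and -0.96 ± 0.11 log2 (adjusted p = 2.68e-06) gave the largest interaction of the group, 1.95 ± 0.16. Nop56 had 11.02, 10.83 and 10.92 log2 in arrays labelled activated B, 10.25, 10.24 and 10.15 in arrays labelled activated T, 9.98, 10.30 and 10.24 in arrays labelled resting B and 10.69, 10.90 and 10.95 in arrays labelled resting T, with steps of 0.75 ± 0.11 and -0.64 ± 0.11. High and low groups were apart for both genes. Rrp9, a protein of the U3 snoRNP that the processome needs, had the smallest interaction, 0.99 ± 0.15 log2. It had 7.81, 7.61 and 7.79 in arrays labelled activated B, 6.99, 6.85 and 7.10 in arrays labelled activated T, 7.33, 7.29 and 7.32 in arrays labelled resting B and 7.41, 7.49 and 7.75 in arrays labelled resting T. The low groups differed for Rrp9, which was lower under the label activated T than under resting B (-0.33 ± 0.10, adjusted p = 0.0354). Fbl, which encodes the methyltransferase fibrillarin, stepped by 0.68 and -0.65 log2, and by 0.44 and -0.52 on its second, dimmer probe set.

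The 3 box H/ACA snoRNP genes all rose in labelled B (median 1.01 log2) and fell in labelled T (median -0.89). Nhp2 encodes a core protein of these particles, which also belong to telomerase, and had the steepest step of all 43 genes in labelled B. Its values were 9.21, 9.08 and 9.12 log2 in arrays labelled activated B, 7.54, 7.57 and 7.66 in arrays labelled activated T, 7.68, 7.90 and 7.94 in arrays labelled resting B and 8.75, 8.78 and 8.88 in arrays labelled resting T. The arrays of the 2 high groups lay at least 0.81 log2 above those of the 2 low groups. The step was 1.30 ± 0.09 log2 in labelled B, or 2.46-fold (adjusted p = 8.42e-09), and -1.21 ± 0.09 in labelled T, or 0.43 times the level of the labelled resting T arrays (adjusted p = 2.21e-08). Dkc1 encodes dyskerin, the pseudouridine synthase, and had both the highest mean value and the smallest interaction of the 3, 1.70 ± 0.18 log2. It had 9.68, 9.41 and 9.54 in arrays labelled activated B, 8.44, 8.39 and 8.53 in arrays labelled activated T, 8.41, 8.72 and 8.75 in arrays labelled resting B and 9.06, 9.16 and 9.49 in arrays labelled resting T, with no overlap of high and low groups. Gar1, the third core protein measured, stepped by 1.01 ± 0.17 and -0.89 ± 0.17 log2, with the largest spread among arrays labelled resting T of the 43 genes (SD 0.45).

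All 11 genes of the small subunit processome and of 40S maturation rose in labelled B (median 0.45 log2), and 10 fell in labelled T (median -0.49). Noc4l, the partner of NOP14 in the processome, had the largest interaction of the 43 genes, 2.77 ± 0.16 log2 (adjusted p = 2.46e-10). It had 8.55, 8.38 and 8.68 in arrays labelled activated B, 7.31, 7.31 and 7.20 in arrays labelled activated T, 7.16, 7.31 and 7.31 in arrays labelled resting B and 8.55, 8.81 and 8.95 in arrays labelled resting T. High and low groups were 1.07 log2 apart at their nearest arrays, and the steps were 1.27 ± 0.11 (2.41-fold, adjusted p = 8.68e-08) and -1.50 ± 0.11 (0.35 times, adjusted p = 1.31e-08). Nop14 itself had steps of 0.55 ± 0.09 and -0.63 ± 0.09 log2. Wdr43, a subunit of the UTP-A complex, which in yeast joins the nascent precursor early, had the highest mean value of the group. It had 10.19, 10.04 and 10.04 in arrays labelled activated B, 9.61, 9.68 and 9.58 in arrays labelled activated T, 9.65, 9.74 and 9.82 in arrays labelled resting B and 10.01, 10.13 and 10.20 in arrays labelled resting T, with steps of 0.36 ± 0.09 and -0.49 ± 0.09. The arrays labelled activated B or resting T were above the others, and the step in labelled B missed the threshold under quantile normalization (0.18, adjusted p = 0.092). Ltv1, a factor of 40S export and maturation, had the smallest interaction, 0.61 ± 0.16 log2 (adjusted p = 0.00411). Its values were 7.72, 7.65 and 7.63 in arrays labelled activated B, 7.43, 7.17 and 7.28 in arrays labelled activated T, 6.98, 7.35 and 7.42 in arrays labelled resting B and 7.46, 7.46 and 7.55 in arrays labelled resting T. The step was called in labelled B (0.42 ± 0.11, adjusted p = 0.0066) and missed the threshold in labelled T (-0.20 ± 0.11, adjusted p = 0.211), where the 3 arrays labelled activated T nevertheless lay below the 3 labelled resting T.

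Within the same group the late 40S genes Bysl (bystin, 0.74 and -0.71 log2) and Rrp12 (an export factor, 0.82 and -0.46) had the next largest steps in labelled B after Noc4l, and the sizes of the steps were not tested against each other. The nuclease Nob1, which cuts the 18S RNA at its 3′ end, stepped by 0.23 and -0.58, Tsr1, a late 40S factor, by 0.36 and -0.63, Wdr75, a UTP-A subunit, by 0.30 and -0.35, Utp20 by 0.45 and -0.29 and Heatr1, the homologue of yeast UTP10, by 0.45 and -0.30. Several of these calls were near the threshold. In labelled B, Nob1 lost its call without resting B replicate 2 or 3, activated B replicate 1 or 3 or activated T replicate 5 (0.19 to 0.24, adjusted p from 0.0503 to 0.142), and under quantile normalization (0.15, adjusted p = 0.174). Tsr1 and Wdr75 lost theirs without resting B replicate 1 or activated B replicate 1 or 3 (0.29 to 0.36 for Tsr1, 0.24 to 0.30 for Wdr75), and under quantile normalization (0.22, adjusted p = 0.135, for Tsr1 and 0.21, adjusted p = 0.0759, for Wdr75). In labelled T, Heatr1 lost its call without resting T replicate 5 or 6 or activated T replicate 4 or 6 (-0.28 to -0.26, adjusted p from 0.0515 to 0.0694), and Utp20 without the same arrays (-0.29 to -0.22, adjusted p from 0.0773 to 0.166). Heatr1 also lost it under quantile normalization (-0.18, adjusted p = 0.105), and Utp20 with array weights (-0.23, adjusted p = 0.113) and with only the arrays of the 2 groups fitted (-0.29, adjusted p = 0.0655).

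Of the 10 measured genes of the 60S subunit, 9 rose in labelled B (median 0.76 log2) and the same 9 fell in labelled T (median -0.58). Rrp1b, a homologue of yeast RRP1, had the steepest step of the 43 genes in labelled T. Its values were 8.49, 8.25 and 8.23 log2 in arrays labelled activated B, 6.59, 6.52 and 6.45 in arrays labelled activated T, 7.05, 7.05 and 7.33 in arrays labelled resting B and 7.86, 8.10 and 8.31 in arrays labelled resting T. The arrays labelled activated T were also below all arrays labelled resting B (-0.63 ± 0.12, adjusted p = 0.001). The steps were 1.18 ± 0.12 (2.27-fold, adjusted p = 5.64e-07) and -1.57 ± 0.12 (0.34 times, adjusted p = 2.17e-08). Ebna1bp2, the homologue of yeast EBP2, had the highest mean value, with 9.28, 9.15 and 9.23 in arrays labelled activated B, 8.52, 8.39 and 8.22 in arrays labelled activated T, 8.30, 8.64 and 8.54 in arrays labelled resting B and 8.84, 9.08 and 9.15 in arrays labelled resting T. High and low groups were apart, and its steps were 0.72 ± 0.11 and -0.65 ± 0.11 log2. Noc3l, a factor of early 60S particles, was the one not called, with 7.72, 7.68 and 7.78 in arrays labelled activated B, 7.40, 7.65 and 7.45 in arrays labelled activated T, 7.35, 7.52 and 7.58 in arrays labelled resting B and 7.44, 7.64 and 7.92 in arrays labelled resting T. The arrays labelled activated T and resting T overlapped, and the interaction of 0.41 ± 0.16 missed the threshold (adjusted p = 0.0586). It passed without resting B replicate 3 (0.46, adjusted p = 0.0499), without resting T replicate 4 (0.52, adjusted p = 0.0152) and without activated T replicate 5 (0.48, adjusted p = 0.0353). It also passed with median centring (0.62, adjusted p = 0.00422), 75th percentile centring (adjusted p = 0.0474), dim genes left out (adjusted p = 0.0378) and an intensity trend (adjusted p = 0.0414), and the step in labelled B passed with median centring (0.35, adjusted p = 0.0214).

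The 3 genes of the PeBoW complex, which is needed for the maturation of the large subunit RNA, were all called in both steps. Pes1 stepped by 0.72 ± 0.10 and -0.58 ± 0.10 log2, Bop1 by 0.63 ± 0.12 and -0.53 ± 0.12 and Wdr12 by 0.84 ± 0.12 and -0.55 ± 0.12. Across the labels, Pes1 was the one of the 43 genes called higher in arrays labelled activated T than in arrays labelled resting B (0.35 ± 0.10, adjusted p = 0.0194), and Wdr12 had the largest difference between arrays labelled activated B and resting T (0.54 ± 0.12, adjusted p = 0.00334). The second, dimmer probe set of Wdr12 stepped by 0.81 and -0.19 log2, so the size of its fall in labelled T depends on the probe set. Nop2, a methyltransferase of the large subunit RNA whose promoter window is printed above, stepped by 0.96 and -0.94, Nop16 by 0.88 and -0.58, Rrs1, which helps to place the 5S particle, by 0.79 and -0.58, and Nip7 by 0.70 and -0.58.

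A further 136 ribosome biogenesis genes, from lists of other Pol I subunits, snoRNP assembly, small and large subunit factors and RNA processing nucleases, were split in the same directions. In labelled B 85 rose and 4 fell (median 0.38 log2), in labelled T 79 fell and 2 rose (median -0.38), and the interaction was called positive for 94 and negative for 7 (median 0.79). Of all genes, 19.7% rose and 16.7% fell in labelled B, 17.8% fell and 15.9% rose in labelled T, and 21.9% and 20.9% had a positive and a negative interaction. Among these, the largest positive interactions were those of Pno1, the partner of NOB1 (3.35 ± 0.18), and Mrto4, a 60S factor (2.30 ± 0.15), and the largest negative ones those of Taf1a, another subunit of SL1 (-1.45 ± 0.20), and Mdn1, the 60S-releasing ATPase (-0.85 ± 0.13). Taf1a averaged 7.83 log2 in arrays labelled activated B, 8.71 in arrays labelled activated T, 8.67 in arrays labelled resting B and 8.10 in arrays labelled resting T, so that it ran the opposite way to Rrn3 with both steps called. A list of 60 genes of cytosolic ribosomal proteins was added after the data were seen. It was drawn by the form of the symbol alone, which also admits paralogues of the core proteins. In each labelled group, 3 of the 60 lay at or below background on all of its arrays. Of the 60 genes, 10 rose and 6 fell in labelled B (median 0.02, range -0.65 to 2.54). In labelled T, 3 of the 60 rose and 14 fell (median -0.15, range -1.65 to 0.51). The interaction was called positive for 15 and negative for 5 (median 0.17), to be read beside the shares of all genes above. Against labelled activated T, 23 were higher and 2 lower in labelled activated B (21.8% and 18.9% of all genes). Against labelled resting B, 1 was higher and 11 lower in labelled activated T (8.82% and 9.68%). Against labelled resting T, 11 were higher and 6 lower in labelled resting B (16.1% and 19%), and 3 higher and 0 lower in labelled activated B (13% and 9.93%). These lists were described by counts and medians only, and whether they differ from the 43 genes was not tested.

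Genes of the cell cycle moved in the direction of the 43 genes, and B cell, natural killer cell and most myeloid genes in the opposite one. All 19 measured proliferation genes rose in labelled B (median 3.50 log2) and fell in labelled T (median -2.82), and the log2 of their summed level was 14.37 to 14.43 under the label activated B, 11.35 to 11.53 under activated T, 11.68 to 11.91 under resting B and 13.89 to 13.98 under resting T. Of 16 B cell genes, 16 fell in labelled B and 14 rose in labelled T, with summed levels of 9.27 to 9.51, 15.02 to 15.20, 11.16 to 12.44 and 13.59 to 13.84 in the same order. Of 15 T cell genes, 8 fell and 1 rose in labelled B and 4 rose in labelled T, with summed levels of 13.83 to 13.95, 11.05 to 11.33, 14.18 to 14.29 and 9.54 to 9.80. Across the labels, all 15 T cell genes were higher in labelled resting B than resting T and in labelled activated B than activated T. Of the 16 B cell genes, 12 were lower and 1 higher in labelled resting B than resting T. All 16 were lower in labelled activated B than activated T. The shares of all genes called in these comparisons are given above. Of 14 myeloid genes, 10 fell and 1 rose in labelled B and 8 rose in labelled T (9.01 to 9.15, 10.36 to 10.87, 10.65 to 11.27 and 9.75 to 9.98). Of 6 genes of natural killer cells, 6 fell in labelled B and 5 rose in labelled T (6.76 to 7.25, 7.70 to 8.90, 9.37 to 10.09 and 6.91 to 7.55), and 5 of the 6 were at or below background in all arrays labelled activated B and 4 in all arrays labelled resting T. Of 6 plasma cell genes, 3 rose and 2 fell in labelled B and 4 fell in labelled T (11.12 to 11.36, 10.17 to 10.25, 11.06 to 11.58 and 11.80 to 11.87). Of 5 erythroid genes, 1 fell in labelled B and 1 rose in labelled T (7.42 to 7.56, 7.54 to 8.10, 7.61 to 7.75 and 7.32 to 7.45). The part of these cells in the values of the 43 genes was not tested.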

How the data were processed

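Total RNA of 12 samples in 4 labelled groups of 3 was measured on Affymetrix arrays. The values deposited by the authors are log2 intensities of probe sets, made with RMA per the submitters' processing notes, with no version given in the sources used here. The annotation of the array paired 21640 of 34760 probe sets with 1 symbol, 1321 with several and left 11799 unnamed here. The brightest probe set by mean over all arrays was kept for the 954 genes with more than 1. The background was the 95th percentile of olfactory receptor genes.

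Means of the 4 groups were fitted to 19937 genes with lmFit and eBayes of limma 3.58.1 (R 4.3.3; 8 residual and 7.8 prior degrees of freedom), with 7 contrasts adjusted separately by the method of Benjamini and Hochberg. The limma code was checked on simulated data with known changes. Promoters came from RefSeq (GRCm38.p6). Tables were made with pandas 2.3.3 and numpy 2.4.6 under Python 3.11.15, and figures with matplotlib 3.10.9. The genes and lists were chosen with earlier results of these data known. In each of 6 role groups, all array values are given for the gene with the highest mean, the largest and the smallest absolute interaction, and also for Rrn3 and Taf1b, chosen after their values were seen. Of the further ribosome biogenesis genes, the 2 largest interactions of each sign were named.

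Same-numbered arrays of the labelled T groups correlated with r = 0.22, 0.16 and 0.23 in their deviations from the group means, each highest with its own number. Whether the numbers mark pairs was not tested. No 2 arrays were copies, since at most 0.069% of values were identical. Alternatives were centring on the median or 75th percentile, quantile normalization, a filter on dim genes (12170 kept), the mean of all probe sets, only the arrays compared, array weights, eBayes with a trend and robust settings, a block for the replicate number, and each array left out in turn.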

Additional observations from a re-analysis of the deposited data

Results flagged for a closer look

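For 39 of the 43 genes the step from labelled resting to labelled activated differed between the labelled B and the labelled T arrays by a test of the difference itself, the interaction in limma (adjusted p under 0.05 over all genes). The values are the step in labelled B minus the step in labelled T, in log2, and all 39 were positive. With 21.9% of all genes called positive in the same test, such a difference was common on these arrays. Since the arrays labelled B held the T cell gene Cd3e at a high level and the arrays labelled T the B cell gene Cd79a, the values are differences between labels and carry no statement on the cells behind them.

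Of the Pol I genes, Polr1a (0.63), Polr1b (1.29), Polr1c (1.58), Polr1e (0.91) and Rrn3 (0.98) differed. All nucleolar scaffold and chaperone genes did, which were Ncl (1.64), Npm1 (2.01), Nolc1 (1.77), Tcof1 (0.81), Ddx21 (1.24), Gnl3 (1.69) and Mybbp1a (1.85). The box C/D snoRNP genes were Fbl (1.33), Nop56 (1.38), Nop58 (1.95) and Rrp9 (0.99). The box H/ACA snoRNP genes were Dkc1 (1.70), Nhp2 (2.51) and Gar1 (1.91). The genes of the small subunit processome and of 40S maturation were Nop14 (1.18), Noc4l (2.77), Rrp12 (1.28), Wdr43 (0.85), Wdr75 (0.65), Utp20 (0.75), Heatr1 (0.74), Bysl (1.45), Nob1 (0.81), Ltv1 (0.61) and Tsr1 (0.99). The genes of the 60S subunit were Bop1 (1.16), Pes1 (1.30), Wdr12 (1.39), Rrp1b (2.75), Rrs1 (1.37), Nop2 (1.90), Nop16 (1.46), Nip7 (1.28) and Ebna1bp2 (1.37). In every one of these the group labelled activated B had a higher mean than the group labelled resting B, and the group labelled activated T a lower one than the group labelled resting T.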

How the results depend on the processing

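The main results kept their direction. The 38 genes called higher in labelled activated than resting B became 34 to 38, the 38 called lower in labelled activated than resting T 36 to 38 and the 39 with a positive interaction 39 to 40 when any 1 array was left out. Of the other settings, centring each array on its median moved the median difference of the 43 genes to 0.79 (labelled activated B against resting B), -0.69 (labelled activated T against resting T), 0.89 (labelled activated B against activated T) and 1.50 (interaction). It also moved the median of all genes to 0.09, -0.09, 0.10 and 0.18. Centring subtracts 1 value from all genes of an array, so the 43 genes relative to all genes could not change. Among all called genes it moved the share of higher ones to 68.5% from 53.5% between the activated groups and, for the interaction, to 67.6% from 51.2%. Quantile normalization moved the medians to 0.54 (activated B against resting B), 0.66 (activated B against activated T) and 1.13 (interaction), and gave Polr1d a step of -0.0131 in labelled B (adjusted p = 0.935), opposite to the 0.13 reported. Taf1b accounted for each call against the direction of the others in the steps, the interaction and the comparison of the resting groups. It was the 1 gene called lower in labelled activated B than resting B and the 1 with a negative interaction under quantile normalization. It was also the 1 gene with a negative interaction with dim genes left out, with array weights, with the intensity trend and with all probe sets averaged, and the 1 called higher in labelled resting B than resting T under all of these except the averaged probe sets. Pes1 was the 1 gene called lower in labelled activated B than resting T under quantile normalization. The 5 genes called higher there became 8 with array weights, and the 3 called lower in labelled activated T than resting B became 5 under quantile normalization, the dim filter and array weights. The cause of these shifts was not tested.

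Leaving out 1 array at a time gave medians of -0.70 to -0.55 for labelled activated T against resting T, -0.56 to -0.40 for resting B against resting T and 1.18 to 1.39 for the interaction. It gave 0 to 1 gene higher in labelled resting B than resting T, 3 to 10 higher and 0 to 1 lower in labelled activated B than resting T, 0 to 1 higher and 1 to 4 lower in labelled activated T than resting B, and 0 to 1 with a negative interaction. In the steps and the interaction, single genes gained a call in 7 and lost one in 22 of the values with 1 array left out, and gained one in 18 and lost one in 9 of those under other settings, while 1519 and 1090 kept their side of the threshold.

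With the replicate number as a block, 37 genes were higher in labelled B, 38 lower in labelled T and 39 had a positive interaction. The replicate block ended the call of Nob1 in labelled B (adjusted p = 0.0763) and no other. In the labelled B groups same-numbered arrays correlated with r = -0.06, 0.06 and 0.25 in their deviations from the group means, and only replicate 3 correlated best with its own number. Arrays hold no read depth, and 3 arrays per group limit the precision.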
